A study of Homo sapiens with 4 samples.

Results

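The peaks described here are stretches of RNA recovered with IGF2BP3 whose highest point, the summit, lay close to a stop codon. A peak was a member when it was at most 1000 bp wide, its summit fell on exactly 1 MANE Select mRNA (the single reference transcript per gene) of GENCODE release 44, and that summit lay within 200 nt of the last base of the stop codon, counted along the mRNA. There were 3330 such peaks among 44622 deposited peaks in replicate 1 and 3159 among 42723 in replicate 2, on 2650 and 2504 genes. They made up 8.42% and 8.25% of the 39569 and 38295 summits that lay on 1 mRNA. The position of a summit is given below as an offset, which is 0 at the last base of the stop codon, negative towards the coding sequence and positive in the 3′ UTR. Summits at an offset of 0 or less are called before the stop, and those at 1 or more after it.

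To explore which RNAs IGF2BP3 binds in adenocarcinoma of the esophagogastric junction (AEG), the study ran RNA immunoprecipitation and sequencing (RIP-seq) on OE-19, an established AEG cell line without any further treatment. Per the labels, cells were fixed with UV light before lysis, and 2 libraries were made with an anti-IGF2BP3 antibody and 2 from input RNA. The study's own RIP method names no such fixation and describes UV crosslinking only for a separate binding assay. Whether the RIP cells were fixed is therefore not settled by these sources. Peak lists of the 2 RIP libraries were analysed, and the 2 input libraries were not analysed here. Nothing in the labels says whether the replicates came from separate cultures, so the spread between them may be technical.

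IGF2BP3 is an oncofetal RNA-binding protein that carries RRM and KH domains, is known to stabilize bound mRNAs, and is counted among the readers of N6-methyladenosine (m6A). In mammalian mRNAs, m6A is known to gather around stop codons and in long last exons, at sequences of the DRACH type. The stop codon is also where the ribosome leaves the message, so the sequence before it is cleared by translating ribosomes and the sequence after it is not.

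The strength of a peak is given as the fold enrichment that the peak caller wrote for its summit, a ratio to the background it estimated there. Its q is the caller's p after the caller's own correction for multiple tests within 1 library. The q belongs to 1 RIP library at a time and does not measure the spread between replicates. With 2 RIP libraries and no second group, no test between conditions was possible, since the smallest two-sided p of a sign test on 2 replicates is 0.5. Values are therefore given per replicate or as mean ± SD (n = 2). Read depth is unknown, because the lists hold no read counts. An abundant RNA and a strongly bound RNA cannot be told apart in them. As a check of the cell label, 1 of 6 epithelial marker genes, 0 of 2 genes of the ERBB2 amplicon, 0 of 4 fibroblast markers and 0 of 3 endothelial markers held a summit in both replicates. The leukocyte marker gene CD68 held 1 member in each replicate, with folds of 2.04 and 2.25, and these peaks did not overlap each other. The lists thus hold few of the markers of the labelled cell type, and they say nothing on the expression of genes that lack a peak.

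The sequences below are 30 bases of mRNA, read 5′ to 3′ from the hg38 genome, for peaks on which the results turn. In the first set both replicates placed their summits no more than 20 bases past the stop codon, and the capitals mark the stop codon.
MLLT10 (chr10:21741978-21742007, + strand): agtTGAcacctgagaaacatctagaaattg
ATXN2 (chr12:111452789-111452818, - strand): gttgTAAggctgccctggaggaaccgaaag
GRK5 (chr10:119455057-119455086, + strand): gaagcagcTAGtttcggctctggcctccaa
DDI2 (chr1:15656625-15656654, + strand): aagccaTGAtgcatgtagtgtgtgtgtact
KMT2C (chr7:152136814-152136843, - strand): tggatgaacTGAaatgcattccttgctagc
CDC25A (chr3:48158923-48158952, - strand): agctcTGAgggcggcaggaccagccagcag

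The second set shows coding sequence at the summits of strongly enriched peaks before the stop. Capitals mark the summit base of each replicate.
MBNL1 (chr3:152456312-152456341, + strand): caacatctGccacaagtgttCccttcgctg
SBF2 (chr11:9781531-9781560, - strand): gctggccccagcaTggGagccccaaagcac
REPS1 (chr6:138907541-138907570, - strand): ggCatcaattagacgtaataaggaaacCaa
AFF1 (chr4:87134602-87134631, + strand): atatgacatcttccTAtgtcaccatcacat
TCF12 (chr15:57282504-57282533, + strand): gccgtatcggcaGagccGccaaccacactg
ODAM (chr4:70202809-70202838, + strand): tgacagtgcaggagTTttcatgccctcaac
NFIA (chr1:61406632-61406661, + strand): caccaccGatggccaggcctgtGcctctgc
B4GALT5 (chr20:49636395-49636424, - strand): ggctggatggccTcaaCaacctgaactact
ZNF609 (chr15:64681328-64681357, + strand): tgttgccagccaaCaaGgctcaactccctc

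The third set shows 3′ UTR sequence at the summits of strongly enriched peaks after the stop, with the summit bases again in capitals.
IRS2 (chr13:109756232-109756261, - strand): gtatcattaaAagaagacGctcagcactgt
TBCK (chr4:106046509-106046538, - strand): gtggcatcagCaccaacaGcacagttcttc
CAMK2D (chr4:113454458-113454487, - strand): tctctgttctcAaggcaCctggatggtgac

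Summits were more frequent before the stop than after it. Replicate 1 had 2414 summits before and 916 after the stop, and replicate 2 had 2281 and 878, so that 27.7 ± 0.202% (SD, n = 2) lay after it. Only 28 and 20 summits fell on the 3 bases of the stop codon itself, while 1435 and 1251 of the peaks spanned its last base. Per kb of mRNA, counted over the 6008 and 5818 mRNAs with at least 1 summit, the density was 1.999 and 1.951 before the stop and 0.771 and 0.763 after it. The ratio of after to before was 0.386 and 0.391, and the difference between the sides was far larger than the spread between replicates. The ratio was 0.191 among peaks whose q was 0.05 or lower and 0.608 within 100 nt of the stop. Counted as bases under a peak, the sides were closer, with 26.5 ± 1.29% before and 19.98 ± 1.59% after the stop and ratios of 0.769 and 0.736. Both densities lay between those of the flanking mRNA: the coding sequence (CDS) outside the window held 2.21 and 2.24 summits per kb, and the 3′ UTR outside it 0.419 and 0.386.

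The change across the stop was gradual, as the plot of summit density in 20-nt bins shows. Density was 2.57 ± 0.139 per kb (SD, n = 2) at offsets -200 to -181, 1.91 ± 0.0434 at -100 to -81 and 1.30 ± 0.147 at -20 to 0. Immediately after the stop it was 1.37 ± 0.0252 at offsets 1 to 20, which differed from the preceding bin by less than the spread between replicates. It then went down to 0.775 ± 0.0668 at 81 to 100 and 0.339 ± 0.0197 at 181 to 200. The first bin was 7.62 ± 0.851 times as dense as the last. Neither replicate had a local maximum at the stop codon that exceeded the density further upstream.

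**Figure D1:**
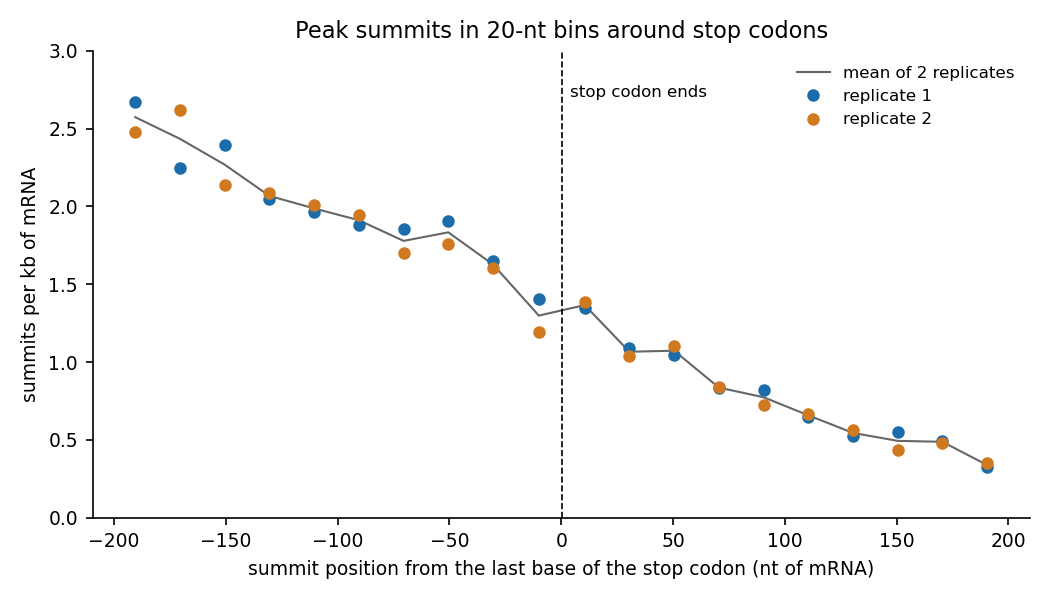
Summits per kb of mRNA (vertical axis) in 20-nt bins by position from the last base of the stop codon (horizontal axis), with a point for each replicate and a line for their mean. Density goes down from 2.57 per kb in the first bin to 0.339 in the last, with no peak at the dashed line that marks the end of the stop codon.

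The edges of the window cut through a continuous distribution. Just outside it, at offsets -220 to -201, there were 285 and 297 summits with median folds of 2.91 and 3.02, against 321 and 288 summits with median folds of 2.95 and 2.90 at -200 to -181. On the other side, 38 and 40 summits at 181 to 200 had median folds of 2.75 and 2.77, and 36 and 44 at 201 to 220 had 2.82 and 2.79. The limit on width also removed little at its edge, where 17 and 10 members were 901 to 1000 bp wide and 14 and 8 peaks of 1001 to 1100 bp were left out.

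Peak height hardly differed between the sides, whereas width and q did. The median fold was 2.95 and 2.96 before the stop and 2.92 and 2.89 after it, against 2.96 and 3.001 in the CDS outside the window and 2.78 and 2.75 in the 3′ UTR outside it. The upper ends were further apart: the 95th percentile of fold was 4.76 ± 0.0981 before and 4.38 ± 0.0604 after the stop, and the highest folds were 10.8 and 8.20 before and 6.62 and 5.76 after it. Peaks before the stop had median widths of 118 and 109 bp, and those after it 189.5 and 171.5 bp. The caller's q was 0.05 or lower for 271 and 181 members, or 8.14% and 5.73%, against 9.77% and 7.47% of all deposited peaks. The share was 9.40% and 6.71% before the stop and 4.80% and 3.19% after it, and in each replicate the side before was higher. A q of 1 was recorded for 63.1% and 68.4% of members, against 61.25% and 65.9% of all summits on 1 mRNA. Most members were thus weak calls on their own, as were most summits on mRNAs in general.

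The last exon held fewer summits than its length in the window. Of all members, 63.9 ± 1.96% (SD, n = 2) had the summit in the last exon, which made up 84.3 ± 0.130% of the window bases of mRNAs with a summit. Among peaks with the stricter q the share was 37.8%. After the stop nearly all positions belong to the last exon, and 98.6% and 98.9% of summits lay there. Before the stop, 1271 of 2414 and 1107 of 2281 summits (52.7% and 48.5%) were in the last exon, which supplied 69.0 ± 0.263% of the bases. A further 920 and 927 were in the next-to-last exon, and 223 and 247 lay further upstream. Across the 3317 and 3148 summits on mRNAs with an exon junction, the median summit was 62 and 55 nt past the last junction, with quartiles of -40 to 153 nt and -45 to 151 nt.

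The contrast between exons held at matched distances from the stop when summits were counted, but was smaller when covered bases were counted. Before the stop, earlier exons had 3.07 and 3.22 summits per kb and the last exon 1.52 and 1.38, a ratio of 2.18 ± 0.227. At offsets -200 to -151 the densities were 3.38 ± 0.0136 in earlier exons and 1.22 ± 0.0942 in the last exon, and at -50 to 0 they were 2.48 ± 0.398 and 1.48 ± 0.0521. Within the last exon alone, density was 1.39 ± 0.101 at -150 to -101, 1.58 ± 0.170 at -100 to -51, 1.16 ± 0.0258 at 1 to 50, 0.868 ± 0.0334 at 51 to 100 and 0.425 ± 0.00192 at 151 to 200. In both replicates each bin after the stop was lower than the bin that preceded it.

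Covered bases gave another picture. Before the stop, peaks covered 28.5 ± 0.285% of the bases of earlier exons and 25.6 ± 2.01% of those of the last exon, a ratio of 1.12 ± 0.0989. At offsets -50 to 0 the order was turned, with 22.8 ± 1.04% of bases in earlier exons and 26.5 ± 1.66% in the last exon. Across the stop within the last exon, the covered share went from 25.6 ± 2.01% before to 19.98 ± 1.57% after it (ratio 0.780), while the summit density ratio there was 0.524 ± 0.0344. The peaks differed in width accordingly: the median was 88 and 86 bp in earlier exons and 173 and 165 bp in the last exon before the stop. The q was 0.05 or lower for 13.7% and 10.1% of the peaks in earlier exons and for 5.51% and 3.07% of those in the last exon before the stop. Counting summits therefore weights the many narrow peaks of earlier exons more than counting bases does.

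**Figure D2:**
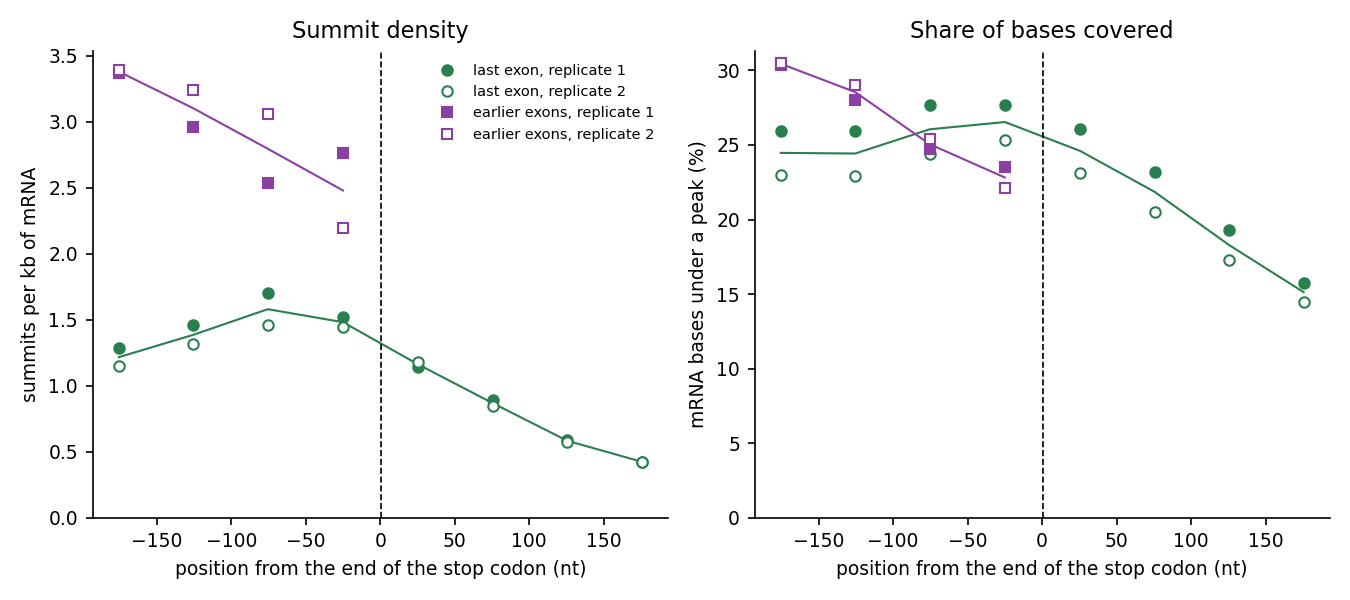
Summits per kb of mRNA (left) and the percentage of mRNA bases under a peak (right) in 50-nt bins by position from the end of the stop codon, for the last exon (circles) and earlier exons (squares, shown before the stop only), with a point per replicate and a line for the mean. Earlier exons lie above the last exon in every bin on the left, while on the right they lie above it only in the 2 bins furthest from the stop in both replicates.

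**Figure D3:**
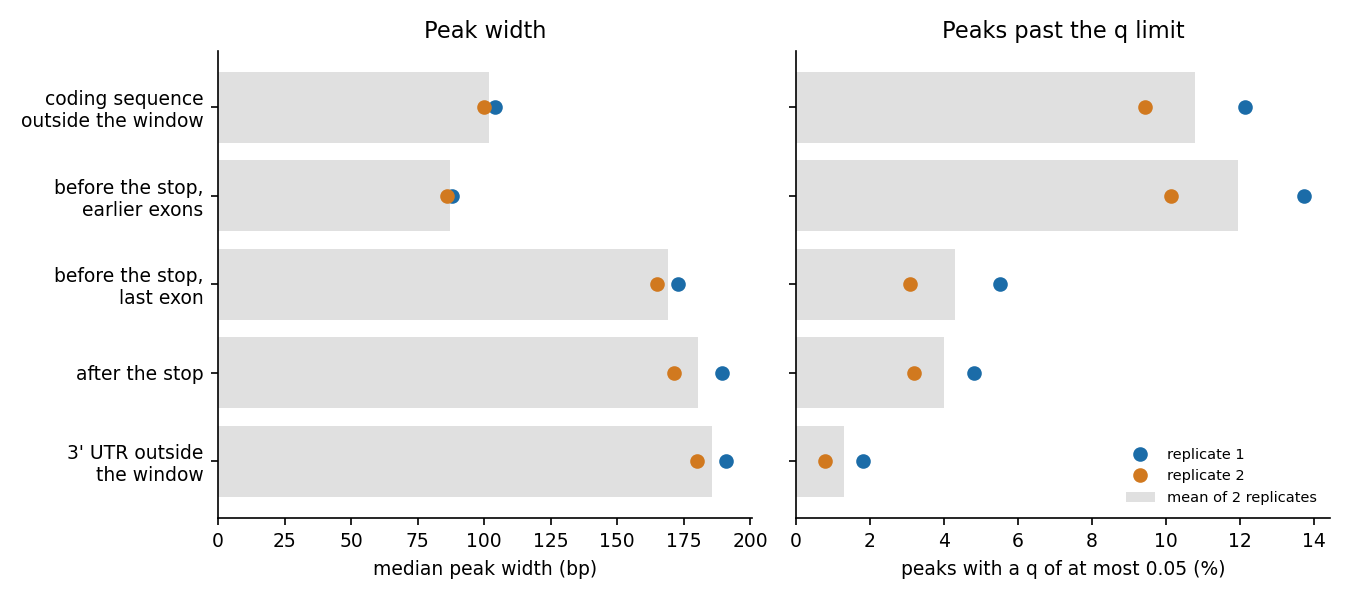
Median peak width in bp (left) and percentage of peaks whose q was 0.05 or lower (right) for peaks in coding sequence outside the window, in earlier exons before the stop, in the last exon before the stop, after the stop and in the 3′ UTR outside the window. Bars are means and points the 2 replicates. Peaks of earlier exons resemble those of the remaining coding sequence in width (87 and 102 bp on average), and peaks of the last exon before the stop resemble those after it (169 and 180.5 bp).

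The replicates shared about as many members as peaks in general. In replicate 1, 62.0% of members overlapped a peak of the other replicate by at least 1 bp, against 60.2% of all deposited peaks. In replicate 2 the shares were 67.7% and 64.2%. Genes with a member in both replicates numbered 1688 of 3466 with one in either, which were 63.7% of the replicate 1 genes and 67.4% of the replicate 2 genes. They made up 32.6% of the 5171 mRNAs that had any summit in both. A summit before the stop in both replicates was found for 1162 genes (55.5% and 58.1% of each list), and a summit after the stop in both for 331 (36.4% and 37.9%). These were 22.5% and 6.40% of the 5171 mRNAs. Overlap of single peaks did not differ in the same way, with 62.7% and 66.1% before the stop and 60.3% and 71.8% after it.

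Members that overlapped between replicates formed 1755 pairs in 1470 genes. Their summits lay a median of 24 nt apart, and 572 pairs (32.6%) had summits within 10 nt. Of all pairs, 1088 had both summits before the stop and 324 both after it, so 80.5% agreed on the side. Because pairs were formed by overlap, those in which neither peak spanned the last base of the stop agree by construction. Fold enrichment was only loosely shared: over the 1755 pairs, which come from the same 2 libraries, Pearson's r of log2 fold was 0.297 and Spearman's rho 0.279, with r of 0.273 for pairs before and 0.36 for pairs after the stop. In 38 of the 1755 pairs the q was 0.05 or lower in both replicates. They came from 35 genes, and 30 lay before the stop, 4 after it and 4 on different sides. By exon, 25 lay in an earlier exon and 13 in the last, and among single members with such a q 37.8% lay in the last. Pairs of all deposited peaks were not counted in this way, so these counts have no general share beside them.

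**Figure D4:**
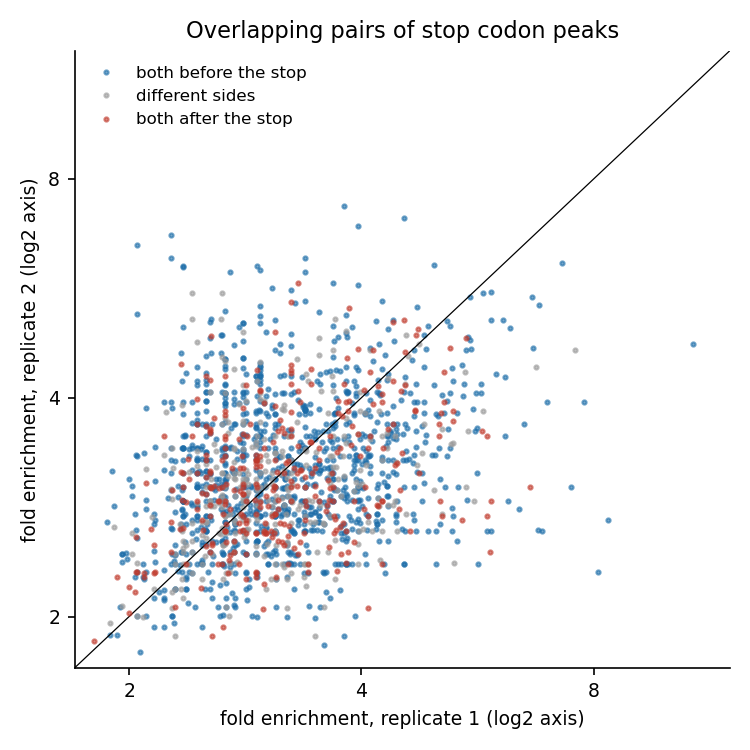
Fold enrichment in replicate 1 (horizontal, log2 axis) against replicate 2 (vertical, log2 axis) for the 1755 overlapping pairs, coloured by the side of the stop on which both summits lay, with the diagonal as a line of equal folds. The cloud is broad around the diagonal (r = 0.297), and the highest fold of replicate 1, 10.8 in MBNL1, is paired with 4.74.

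The strongest pairs with both summits before the stop were mostly in earlier exons, 9 of the 10 genes chosen by mean fold. MBNL1, a muscleblind regulator of alternative splicing, was first with folds of 10.8 and 4.74 at chr3:152456250-152456387 and chr3:152456242-152456382, in exon 8 of 10, at offsets -98 and -86. Its place rests on replicate 1, where the fold was more than that of any other member. SBF2, a regulator of endosomal trafficking of the myotubularin family, had folds of 7.27 and 6.12 at offsets -136 and -139 in exon 39 of 40, at chr11:9781492-9781649 in replicate 1. In replicate 2 the summit of SBF2 also lay on an exon of another gene, as it did for 6.10% and 5.86% of all members. REPS1, an EH-domain protein of endocytosis, had 6.80 and 5.36 at -142 and -117, and AFF1, a scaffold of the super elongation complex, had 6.65 and 5.49 at -200 and -199, at the very edge of the window.

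The transcription factors TCF12 and NFIA had folds of 7.76 and 3.95 and of 6.68 and 4.68. For TCF12 the q was 1.36e-06 in replicate 1 and 0.649 in replicate 2, so the call rests on the first. ODAM, which encodes a secreted protein known from enamel epithelium, had closely matching folds of 5.88 and 5.59 at offsets -124 and -123 in exon 10 of 12. B4GALT5, a galactosyltransferase of glycolipid synthesis, was the 1 gene of this group with its peak in the last exon (9 of 9), with folds of 5.75 and 5.57 at -100 and -96. In ZNF609, a zinc finger gene, the folds were 6.23 and 4.98 at -38 and -41 in exon 9 of 10. GOLGA7, a partner of a palmitoyltransferase, was the 1 gene with the higher fold in replicate 2 (4.54 and 7.07), and in both replicates its summit also lay on an exon of another gene.

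After the stop, all 10 genes had the summits in the last exon, and their folds were lower. MBNL3, a second muscleblind gene, had folds of 5.47 and 4.82 at offsets 127 and 29, at chrX:132379367-132379691 and chrX:132379363-132379690, so the peaks coincided while the summits did not. MLLT10, a cofactor of the histone methyltransferase DOT1L, had 5.21 and 4.68 at offsets 14 and 20. In IRS2, which relays insulin receptor signals, the folds were 4.74 and 4.97 at 53 and 61. ATXN2, an RNA-binding partner of the poly(A)-binding protein, had 4.71 and 4.88 at 5 and 18, and TMEM245 had 4.54 and 5.11 at 168 and 98. MLLT10, ATXN2 and TMEM245 were the genes of this group with a q of at most 0.05 in both replicates.

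Others rested more on replicate 1. TBCK, a kinase-like protein with a TBC domain, had folds of 6.62 and 3.02 at offsets 42 and 50. The kinase genes CAMK2D and CSNK1G1 had 5.81 and 3.55 and 5.73 and 3.60, with q values of 0.649 and 0.284 in replicate 2. MPV17, which encodes a protein of the inner mitochondrial membrane, had 5.11 and 4.34 with q values of 0.00473 and 0.156. In the ubiquitin ligase gene UBE4B the order was turned, with folds of 4.39 and 5.08 and q values of 0.109 and 0.0229.

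**Figure D5:**
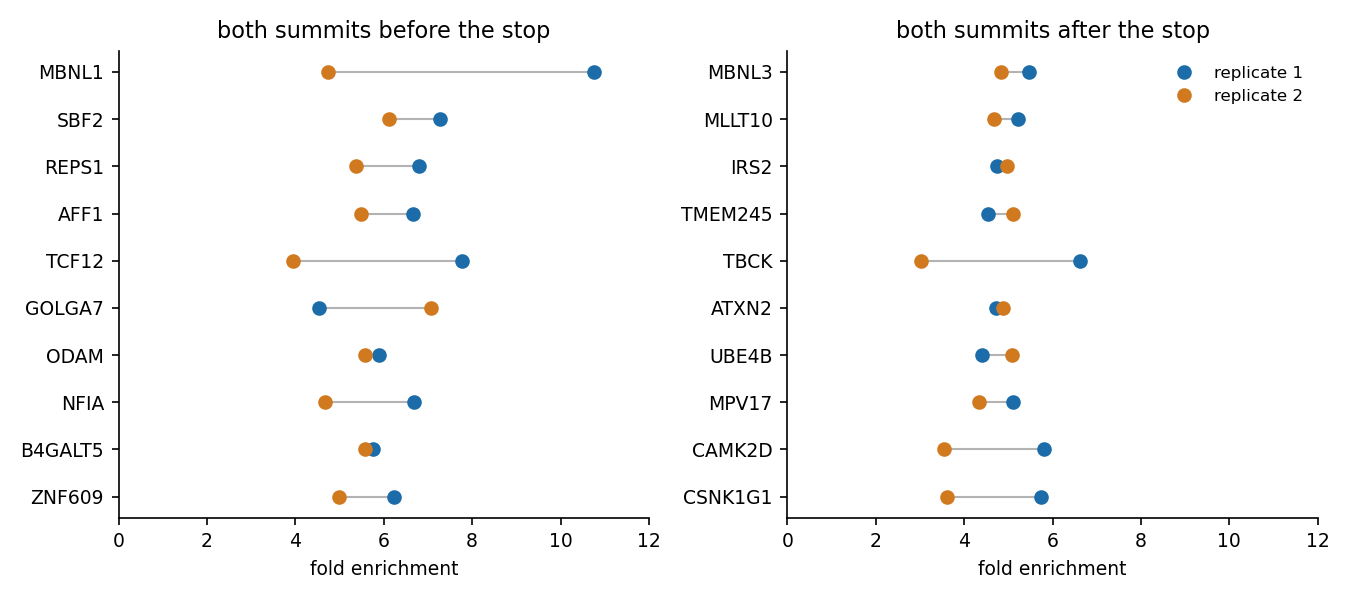
Fold enrichment (horizontal axis) in replicate 1 and replicate 2 for the 10 genes with the highest mean fold among overlapping pairs before the stop (left) and after it (right), with a grey line joining the replicates. MBNL1, TCF12 and TBCK have the longest lines, and ODAM, B4GALT5, IRS2 and ATXN2 have folds that nearly coincide.

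Several pairs had their summits within 20 nt of the stop codon, as in the first set of sequences. KMT2C, which encodes a histone H3 lysine 4 methyltransferase, had summits at 4 and 9 with folds of 3.83 and 4.54 in the last of 59 exons. GRK5, a receptor kinase gene, had 4.69 and 3.83 at 7 and 11. In NFIA both replicates placed a summit at offset 14, with folds of 3.24 and 5.42. DDI2, an aspartic protease gene, differed in structure, since its stop lies in exon 9 of 10, and had 4.11 and 4.34 at 15 and 10. None of these pairs had a q of at most 0.05 in both replicates. In KMT2C the q was 0.224 and 0.0864, and in DDI2 it was 0.302 and 0.284. GRK5 had 0.0356 in replicate 1 and 0.624 in replicate 2. The q of NFIA was 0.00141 in replicate 2 and above 0.05 in replicate 1. These genes were picked by the closeness of their summits after values were seen.

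Most genes had a single member, 2031 and 1900, while 560 and 554 had 2 and 59 and 50 had 3 or more. MBNL3 and RALGAPA2, a subunit of a Ral GTPase-activating complex, had the most, 7 over both replicates. In MBNL3 the peaks were on exons 6, 7 and 9 in both replicates and on exon 8 in replicate 1 alone, with folds of 3.89 and 5.01 on exon 6 and 5.64 and 3.15 on exon 7. RALGAPA2 had peaks on exons 37, 38 and 39 in both replicates, with folds of 4.25 and 5.43 on exon 38, and on exon 40 in replicate 2 alone, with a fold of 4.77. There were 12 genes with 6 members, and MBNL1 and NFIA were picked from this tie after values were seen. In MBNL1 the 3 peaks were on exons 7, 8 and 9 in each replicate, and the folds on exon 9 were 8.34 and 2.72. NFIA had its peaks on exons 9, 10 and 11, and the folds on exon 10 were 5.43 and 4.18. Members of 1 gene share its RNA and are not independent of each other.

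For the genes the study names, summits were counted among peaks at most 1000 bp wide that lay on 1 mRNA. CDC25A, a phosphatase that activates cyclin-dependent kinases at the G1-S transition, had 1 such summit in each replicate. Both were members in the last of its 15 exons. In replicate 1 the peak spanned chr3:48158681-48158937 with its summit at offset 15, a fold of 3.10 and a q of 0.336. In replicate 2 it spanned chr3:48158909-48159047 with its summit at offset 17, a fold of 2.26 and a q of 1. The summits lay close together, while the folds ranked at the 59.3 and 9.47 percentiles of members. WEE1, a kinase that opposes CDC25 phosphatases, had a member in replicate 2 alone, at offset -6 with a fold of 2.75. CCNE2 had 3 and 4 summits and MYC had 2 and 0, none of them near the stop. No such summit was found on CDC6, CDK4, CHEK2, E2F1, E2F3 or CCND1 in either replicate, which does not cover wider peaks or summits on several mRNAs.

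The mRNA of IGF2BP3 itself had 2 members in each replicate. On exon 14 they lay at offsets -143 and -132 with folds of 2.35 and 2.89. On exon 15 the summits were at -70 in replicate 1 and 172 in replicate 2, with folds of 2.74 and 3.26. All 4 had a q of 1.

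Among the gene groups, counts are given as genes with a member in both replicates out of genes with any summit in both, to be read beside the 32.6% of all such mRNAs. For the G1-S and replication licensing genes it was 5 of 17, namely RBL2, TFDP1, RB1, CDK6 and CDC25A. RBL2, a relative of the retinoblastoma protein, had folds of 2.81 and 5.06, and RB1 had a pair on each side of the stop, with 2.45 and 3.68 at offsets -192 and -194 and with 2.54 and 3.60 at 73 and 65. CDK6, which phosphorylates RB1, had 2.27 and 3.95 at offsets -116 and -110. IGF2BP family members and their classical targets had 5 of 10, among them CDK6, IGF2BP3, HMGA2 and the forkhead gene FOXK1, which had folds of 3.82 and 4.08.

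The m6A machinery had 2 of 12. FTO, an m6A demethylase, had folds of 4.55 and 3.68 at -80 and -72, and YTHDF3, an m6A reader, had 3.12 and 2.90 with both summits at offset 154. Translation termination and nonsense-mediated decay genes had 3 of 10. They were SMG1, the kinase of the decay pathway, with 5.26 and 3.72 after the stop, the exon junction component CASC3 with 3.35 and 3.44 at -85 and -88, and GSPT1, which encodes release factor eRF3, with 3.23 and 2.66 at 74 and 75.

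Kinesins had 8 of 21, among them KIF18A, a motor of chromosome alignment, with a pair on each side of the stop. The folds were 3.53 and 3.18 at offsets -145 and -132 and 3.91 and 2.53 at 34 and 3. The proteasome had 2 of 7, PSME4 with 4.25 and 3.28 and PSMD5 with 3.82 and 2.37. Zinc finger genes had 26 of 159, or 16.4%, among them ZNF609, ZNF385A (5.34 and 3.02 at -79 and -116) and ZNF143, which had 2.66 and 5.27 at -151 and -114 and 3.30 and 3.15 at 85 and 146. The respiratory chain had 0 of 2. None of the 90 ribosomal protein genes or the 69 replication-dependent histone genes had a member. Neither group had a gene with a summit in both replicates, so there is no share to give. Ribosomal protein genes with any summit numbered 0 in replicate 1 and 1 in replicate 2, and no histone gene had a summit. Only peaks at most 1000 bp wide with the summit on 1 mRNA were counted. These counts were not adjusted for transcript length.

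The genes with members had more peaks in general. They had a median of 7 summits on the mRNA in each replicate, against 3 for other mRNAs with a summit. An mRNA with more summits is more likely to have one in the window, so the selection itself favours such genes. For 189 and 187 genes every summit lay in the window, and among the 2478 and 2338 member genes with more than 1 summit, 530 and 486 had the highest fold there. Median 3′ UTR length was 2263 and 2306 nt for genes with summits before the stop and 2210.5 and 2413.5 nt for those with summits after it, against 2046 and 2049.5 nt for all mRNAs with a summit and 1059 nt for all 19061 MANE Select mRNAs. Median CDS length was 1866 and 1854 nt before, 1771.5 and 1743 nt after, and 1806 and 1818 nt for all mRNAs with a summit. Genes with summits before the stop had a median of 13 exons, and all mRNAs with a summit 12. The stop lay in the last exon for 94.6 ± 0.115% of member genes and for 96.4 ± 0.0374% of mRNAs with a summit.

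Motif shares around the summits were set against those at the same positions in all mRNAs with a summit. Among the motifs searched, they differed least for DRACH before the stop and most for CACA after it. DRACH, in which D is A, G or T, R is A or G and H is A, C or T, was searched on the mRNA strand in the bases within 50 nt of each summit. It was present in 89.2 ± 0.134% (SD, n = 2) of windows before the stop against 88.5% at the same offsets, and in 90.0 ± 0.403% after the stop against 87.9%. The motif is short, so most windows of this length hold it. GGAC, the core of the most common m6A sites and contained in some DRACH matches, was present in 33.6 ± 0.995% before against 37.0%, and in 34.0 ± 0.888% after against 30.6%. Its longer form TGGAC was in 13.7 ± 0.772% before against 14.9%, and in 13.5 ± 0.138% after against 11.6%.

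CACA, a sequence known from IGF2BP binding studies, was present in 40.2 ± 0.274% of windows before the stop against 38.7% at the same offsets, and in 41.8 ± 0.767% after the stop against 36.5%. The excess after the stop, in both replicates, was larger than the spread between them. Mean GC content was 49.98 ± 0.563% before against 50.6%, and 47.8 ± 0.138% after against 45.6%. After the stop, then, GC content and the shares of CACA, GGAC and TGGAC all lay above those at the same positions of all mRNAs with a summit, while before it GGAC and TGGAC lay below. The stop codons themselves were distributed alike: TGA ended 47.8% of genes with summits before and 49.2% of those with summits after the stop, against 47.5% of all mRNAs with a summit, and TAA ended 30.9%, 30.3% and 29.8%.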

How the data were processed

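RIP-seq peak lists of the 2 IGF2BP3 libraries were used as deposited, and the 2 input libraries were not analysed here. Per the labels, fastp, HISAT2 and MACS2 were used with hg38, while the study's methods name Tophat2 and MACS2 at default settings. The smallest deposited −log10 p values, 2.0003 and 2.00226, correspond to a p limit of 0.01. Whether input served as control is not given in the sources used here. The authors deposited for each peak a fold enrichment (a ratio to local background), −log10 p-values and q-values, and a score that was not used. Peaks were called per library.

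Summits were placed on MANE Select models of GENCODE release 44 with Python 3.11.15, numpy 2.4.6 and pandas 2.3.3 and drawn with matplotlib 3.10.9. Placing and overlap code was tested on simulated data. Strand was not used in calling peaks, so a summit may belong to an antisense gene. The 13 and 12 peaks on sequences absent by name from the reference were left unplaced.

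Densities are summits per kb over mRNAs with a summit in that replicate. Covered bases count all peaks at most 1000 bp wide. Sequence shares used 50 nt on either side of each summit. Named genes were the study's cell cycle genes, the 10 genes per side with the highest mean fold among overlapping pairs on that side, those with the most members, and up to 4 examples per gene list. The members and lists were chosen with earlier results of these data known. Results for some items are not reported here. Alternatives to the q limit, overlap, window, width, summit and transcript model were recomputed.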

Additional observations from a re-analysis of the deposited data

Results flagged for a closer look

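Some peaks near stop codons fell outside the selection. Peaks over 1000 bp wide had their summit within 200 nt of a stop codon in 90 cases in replicate 1 and 57 in replicate 2. Summits that lay on several mRNAs and near a stop codon numbered 46 and 41. They are data outside the members described above and have no control level to be set against, since the input libraries were not analysed here.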

How the results depend on the processing

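Summits were denser before the stop than after it under every alternative run. With a q of at most 0.05, there were 226 peaks per replicate, and 47 genes had one in both of 368 with one in either. The other values were 15.9% of summits after the stop, a density ratio of 0.191, 37.8% in the last exon, 86.5% overlapping, a median fold of 4.88 and DRACH in 90.1%. Last-exon summits, a majority of all members, were thus a minority among these. With overlapping peaks alone the values were 2101.5 peaks, 28.1% after, a ratio of 0.396, a median fold of 3.06 and DRACH in 89.4%. Overlap of at least 50% of both peaks left 39.6%. Overlap shares at changed settings were not computed for all deposited peaks, so those given here have no general level beside them. A window of 100 nt gave 1611 peaks, 750 genes, 37.5% after, a ratio of 0.608, 85.8% in the last exon, a median fold of 2.94 and DRACH in 90.3%. Peaks at most 300 bp wide gave 24.2% after, a ratio of 0.325, 57.3% in the last exon, 60.3% overlapping, a median fold of 2.89 and DRACH in 89.4%. Midpoints in place of summits gave 33.6% after, a ratio of 0.515, a median fold of 2.93 and DRACH in 89.1%. DRACH was in 89.4% with Ensembl canonical transcripts and in 68.9% within 25 nt. The cause of these shifts was not tested, beyond fewer peaks entering the stricter settings. Leaving out either replicate gives the value of the other, printed above.

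No paired analysis was possible because the results come from no test and the input libraries were not analysed here. Read depth is unknown, and most members have a q of 1, so the lack of a peak on a gene does not show that it was unbound.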
